A study of Mus musculus with 56 samples.

Results

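The cerebellum of Fmr1 knockout (KO) mice was compared with the cerebellum of wild-type (WT) mice by bulk RNA sequencing. The comparison took all 6 cerebellum samples of a series of 56 mouse samples in 19 groups, 3 labelled WT and 3 labelled Fmr1 KO. Every gene of the brain count table and every splicing event listed for cerebellum was considered. The series also holds cortex and hippocampus of both genotypes, 3 samples each, which serve below only to show where cerebellum differed. The labels give tissue and genotype for each sample. Allele, strain, sex, age and whether the 3 samples of a genotype were separate animals are not stated there, so the p-values measure the spread between these samples. The libraries sampled poly(A)-enriched RNA and kept its strand.

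Fmr1 encodes FMRP, an RNA-binding protein that associates with messenger RNAs of neurons and is best known for limiting their translation. Loss of FMRP in people causes fragile X syndrome. In the cerebellum, granule cells excite Purkinje cells, the output neurons of the cortex, through synapses that are wrapped by Bergmann glia and tuned by the metabotropic glutamate receptor mGluR1, which releases calcium from internal stores through inositol trisphosphate receptors.

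The 6 libraries held between 27452002 and 40722762 counts. The 10 most abundant genes took 2.99% to 3.21% of them. Markers of the labelled region were present in every library: Gabra6, a receptor subunit of granule cells, was at 869 to 995 transcripts-per-million (TPM) and Pcp2, a Purkinje cell gene, at 2029 to 2894 TPM, against at most 0.18 and 1.32 TPM in cortex and hippocampus. Neurod6, a transcription factor of forebrain neurons, was at 9.29 to 11.3 TPM, against 109 to 321 TPM in the other regions. The Y-linked gene Ddx3y was at 65.0 to 78.5 TPM in all 6 libraries.

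WT 3, the most deeply sequenced library, stood apart from the other libraries of its group. The log2 values of its genes (those averaging 10 counts-per-million, CPM, or more) spread around the mean of WT 1 and WT 2 with a standard deviation (SD) of 0.165, whereas the other 5 libraries gave 0.0813 to 0.123 against their own group. Its deviation from the mean of all 6 libraries followed the GC content of the transcripts (Spearman's rho -0.54 across 14531 genes, which share the library and are not independent replicates). The corresponding values were 0.29 for WT 1, 0.38 for WT 2 and between -0.11 and 0.11 for the 3 KO libraries. In the tenth of genes with the lowest GC content WT 3 lay 0.11 above that mean on the log2 scale, and in the tenth with the highest it lay at -0.12. Counts of called genes below are therefore also given without WT 3 where leaving it out moved them.

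**Figure D1:**
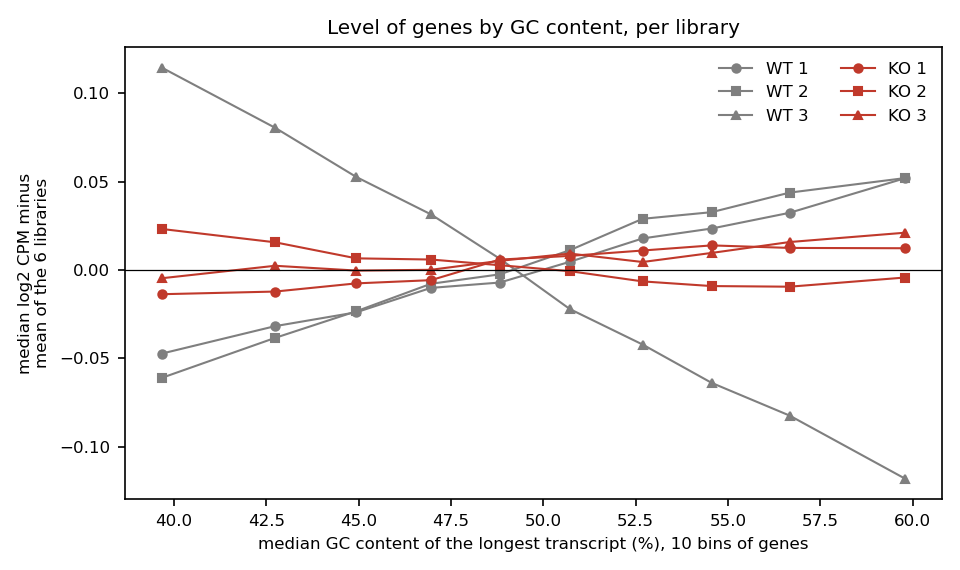
Median deviation from the mean of the 6 libraries (log2 scale, vertical axis) for genes binned by the GC content of their transcripts (percent, horizontal axis), 1 line per cerebellum library. WT 3 runs from 0.11 in the bin of lowest GC content to -0.12 in the bin of highest, opposite in slope to WT 1 and WT 2, and the KO libraries stay near 0.

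The targeted gene was examined first. Fmr1 (ENSMUSG00000000838.17; X chromosome, 68678541 to 68717963, plus strand, GRCm38) was at 102, 107 and 122 CPM in WT 1 to 3 and at 30.8, 31.6 and 32.6 CPM in KO 1 to 3. All KO libraries lay far below all WT libraries and close to each other. The fall was 3.48-fold, a log2 fold change of -1.80 ± 0.07 (standard error, SE; edgeR quasi-likelihood test with Benjamini-Hochberg adjustment, adjusted p 1.01e-07). The mean level per transcript length went from 70.5 to 19.9 TPM, so reads assigned to Fmr1 were still present in every KO library. None of the FMRP partners in a list of 10 genes (its paralogues Fxr1 and Fxr2, the Cyfip, Nufip and Caprin1 proteins and others) was called besides Fmr1. The only other difference passing an unadjusted p of 0.05 was that of Cyfip2, a subunit of the actin-regulating WAVE complex, at -0.10 ± 0.04 (adjusted p 0.559).

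Among 14627 genes tested, 33 differed at an adjusted p under 0.05, which is 0.226% of those tested. Of these, 4 rose in KO (0.0273%) and 29 fell (0.198%). The 4 that rose were Etv5, Grk5, Crhr1 and Sema3a, by 1.24-fold to 1.96-fold. The 28 that fell besides Fmr1 did so by 1.22-fold to 2.49-fold. In each of the 33 genes the KO libraries did not overlap the WT libraries, whereas over all genes tested 7.48% had all KO above all WT and 7.22% all KO below all WT. At an unadjusted p under 0.05 there were 552 higher genes (3.77%) and 724 lower genes (4.95%), and the median log2 fold change of all genes was 0.0043.

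Leaving out WT 3 raised the number of called genes to 256 (97 higher, 159 lower; 1.74%), the 33 among them. Leaving out 1 of the other 5 libraries lowered it to 15 (without WT 2), 10 (without KO 3), 9 (without WT 1), 8 (without KO 2) or 6 (without KO 1). The genes called in all 6 of these fits numbered 5, among them Fmr1, Etv5, Itpr3 and Cgnl1, with Ide called in 5, Grk5 in 4 and Afap1l2 in 3. A further 7 genes were called in 2 of the fits, and 18 only in the fit without WT 3.

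**Figure D2:**
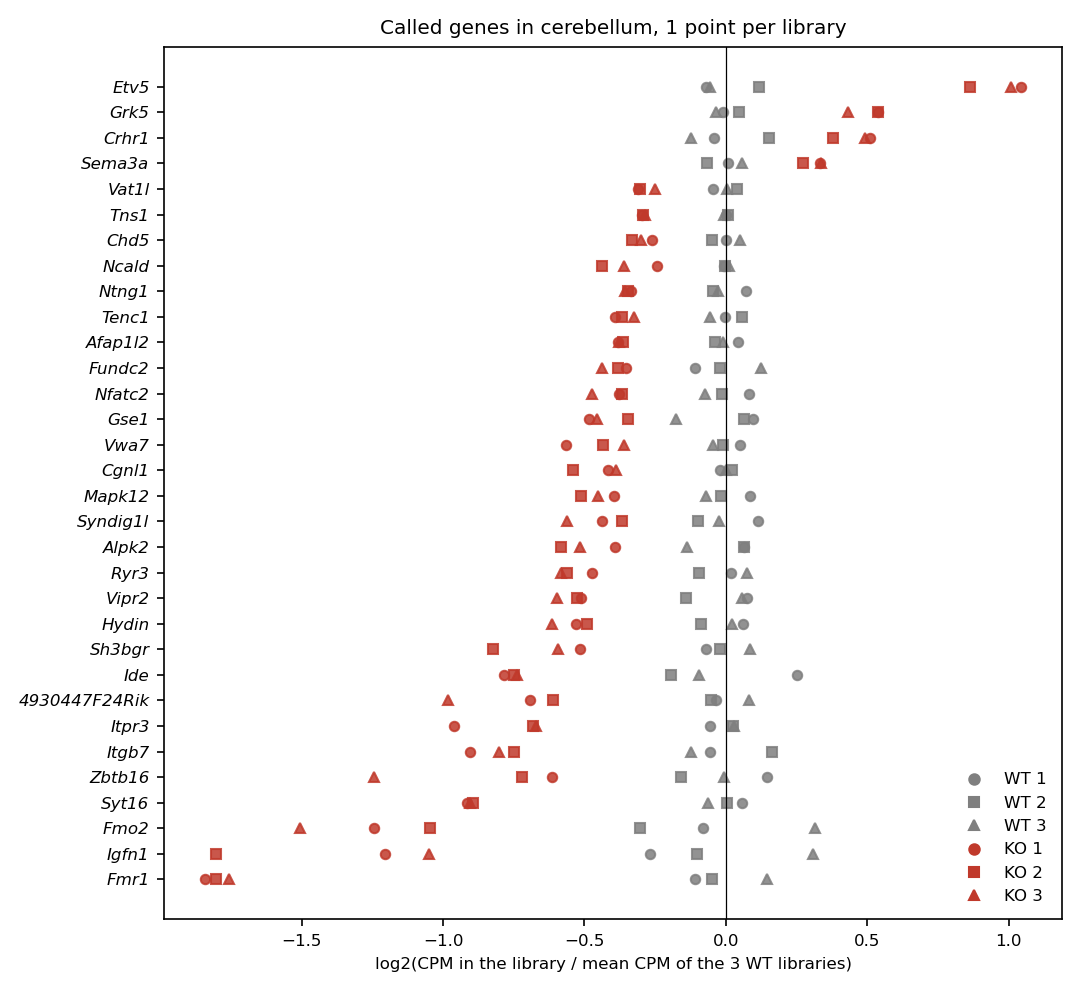
Expression of 32 of the called genes in the 6 cerebellum libraries as log2 difference from the mean of the WT libraries, 1 row per gene and 1 point per library, WT in grey and KO in red. The points of the genotypes do not overlap in any row, and Etv5 lies at the top with the largest rise and Fmr1 at the bottom with the largest fall.

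Called genes of transcriptional control, grouped after their calls were seen, included the largest rise. Etv5 (chromosome 16, 22381309 to 22439719, minus strand), an ETS transcription factor that is induced by fibroblast growth factor (FGF) and ERK signalling, was at 40.03, 45.5 and 40.4 CPM in WT and at 86.6, 76.4 and 84.4 CPM in KO. Its lowest KO library was well above its highest WT library, and the rise was 1.96-fold (log2 0.97 ± 0.07, adjusted p 4.54e-05, and at most 0.000959 with any 1 library left out). Zbtb16 (chromosome 9, 48654297 to 48836222, minus strand), a zinc-finger repressor whose transcription responds to glucocorticoids, was at 35.9, 29.1 and 32.3 CPM in WT and at 21.2, 19.7 and 13.7 CPM in KO (-0.84 ± 0.13, adjusted p 0.0299). KO 3 was the lowest of its libraries. Nfatc2 (chromosome 2, 168476410 to 168601657, minus strand), a factor that calcium and calcineurin move into the nucleus, fell from 24.4 to 18.4 CPM (means; -0.40 ± 0.07, adjusted p 0.0474). Chd5, a chromatin remodeller of neurons, fell by 0.30 ± 0.05, and Gse1 by 0.43 ± 0.07. For Gse1 the library WT 3 was nearest to the KO group, with 88.6 CPM against 107 and 105 in the other WT libraries.

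Called genes for receptors, their regulators and a secreted cue were put together after their calls were seen, and moved in both directions. Crhr1 (chromosome 11, 104132855 to 104175523, plus strand), the receptor for corticotropin-releasing hormone, was at 47.7, 54.5 and 45.1 CPM in WT and at 70.0, 63.9 and 69.0 CPM in KO (0.46 ± 0.07, adjusted p 0.0299). Grk5 (chromosome 19, 60889749 to 61095968, plus strand), a kinase that desensitises G-protein-coupled receptors, was at 30.7, 31.9 and 30.2 CPM in WT and at 44.9, 45.0 and 41.7 CPM in KO. The libraries of each genotype lay within a few CPM of each other, and Grk5 rose 1.42-fold (0.50 ± 0.06, adjusted p 0.00473, but above 0.05 without KO 1 or KO 2, at most 0.0510). Vipr2, a receptor for vasoactive intestinal peptide and PACAP, fell by 0.54 ± 0.09. The integrin subunit Itgb7 fell from 5.02, 5.84 and 4.78 CPM to 2.79, 3.10 and 2.99 CPM (-0.81 ± 0.13), at low counts in both genotypes. Sema3a, a secreted axon guidance cue, had the smallest rise at 0.31 ± 0.06 (adjusted p 0.0496).

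Genes of calcium release and sensing, and a synaptotagmin relative, are described next, chosen after their calls were seen and with a fall that 29 of the 33 called genes share. Itpr3 (chromosome 17, 27057304 to 27122223, plus strand), the type 3 inositol trisphosphate receptor, was at 28.1, 29.8 and 29.9 CPM in WT and at 15.04, 18.2 and 18.4 CPM in KO. It fell 1.70-fold (-0.76 ± 0.08, adjusted p 0.00339), and KO 1 was the lowest library. Itpr1, the form that Purkinje cells contain in large amounts, was at 5493, 5914 and 5449 CPM in WT and at 5128, 5403 and 4975 CPM in KO, without overlap but not called (-0.12 ± 0.05, adjusted p 0.516). Both are channels through which the endoplasmic reticulum releases calcium. Ryr3 (chromosome 2, 112631355 to 113217096, minus strand), a ryanodine receptor that releases stored calcium, was at 27.1, 25.01 and 28.1 CPM in WT and at 19.2, 18.1 and 17.8 CPM in KO (-0.54 ± 0.07, adjusted p 0.00895). Ncald, the calcium sensor neurocalcin delta, was the most abundant called gene per length, at 193 TPM in WT and 150 TPM in KO (-0.34 ± 0.05, adjusted p 0.0299). Syt16, a member of the synaptotagmin family, was at 4.29, 4.13 and 3.95 CPM in WT and at 2.19, 2.22 and 2.20 CPM in KO. The KO libraries of Syt16 were almost equal, and the fall was 1.87-fold (-0.90 ± 0.13, adjusted p 0.0169).

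The next called genes have roles at cell junctions, in the actin cytoskeleton or at the cell surface, and were put together after their calls were seen. Cgnl1 (chromosome 9, 71626509 to 71771602, minus strand), the junction protein paracingulin, was at 122, 126 and 124 CPM in WT and at 92.9, 85.3 and 94.9 CPM in KO (-0.45 ± 0.05, adjusted p 0.00473). Its call was lost in the edgeR fit of all 18 brain libraries (adjusted p 0.998). Afap1l2 (chromosome 19, 56912361 to 57008228, minus strand), an adaptor related to an actin-filament-associated protein, was at 124, 117 and 119 CPM in WT and at 92.2, 93.2 and 92.3 CPM in KO (-0.37 ± 0.05, adjusted p 0.00591). Both genotypes were tightly grouped for these genes. The tensins Tns1 and Tenc1 (now named Tns2), which link integrins to actin, fell by 0.29 ± 0.05 and 0.36 ± 0.06. Ntng1, a membrane-anchored netrin, fell by 0.35 ± 0.06.

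The remaining called genes were enzymes, a cilium gene and genes with less settled roles. Ide (chromosome 19, 37268743 to 37337852, minus strand), the insulin-degrading enzyme, was at 175, 129 and 138 CPM in WT and at 85.5, 87.6 and 88.2 CPM in KO. WT 1 was the highest library, the KO libraries were close together, and the fall was 1.69-fold (-0.75 ± 0.09, adjusted p 0.00591, and 0.0545 without KO 1). Fmo2, a flavin monooxygenase that is also a marker of the meninges in the lists used here, went from 3.64, 3.11 and 4.78 CPM to 1.62, 1.86 and 1.35 CPM (-1.27 ± 0.19, adjusted p 0.0299). Mapk12, the stress-activated kinase p38 gamma, fell by 0.45 ± 0.07. Hydin, a protein of motile cilia, was at 11.2, 10.1 and 10.9 CPM in WT and at 7.45, 7.65 and 7.01 CPM in KO (-0.54 ± 0.09, adjusted p 0.0375). Fundc2, an X-linked gene for a mitochondrial outer membrane protein, was at 84.6, 89.9 and 99.4 CPM in WT and at 71.4, 70.0 and 67.4 CPM in KO (-0.39 ± 0.06, adjusted p 0.0299). Igfn1 had the largest fall after Fmr1, -1.33 ± 0.24, at the lowest level of all called genes (0.69 TPM in WT and 0.27 TPM in KO). Sh3bgr, Vat1l, Vwa7, Alpk2, Syndig1l and the processed transcript 4930447F24Rik made up the rest, with log2 fold changes from -0.29 (Vat1l) to -0.76 (4930447F24Rik).

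The position of the called genes was looked at because KO and WT mice can differ in the stretch of chromosome around a targeted gene. Within 10 Mb of Fmr1, 77 other genes were tested and 1 was called, Fundc2, at a distance of 6.69 Mb. The 77 genes had a median log2 fold change of 0.0085, with 8 higher (10.4%) and 7 lower (9.09%) at an unadjusted p under 0.05, against 3.77% and 4.95% of all genes. Aff2, the tested neighbour of smallest distance among these 15, was higher by 0.18 ± 0.06 at 0.92 Mb (adjusted p 0.451). Within 0.5 Mb of Ide, 9 other genes were tested, and none was called. Fgfbp3, a secreted FGF carrier, was at 11.6, 8.18 and 7.56 CPM in WT and at 5.36, 6.27 and 6.64 CPM in KO (-0.56 ± 0.15, adjusted p 0.260). Btaf1, a regulator of the TATA-binding protein, was at 106, 88.6 and 106 CPM in WT and at 75.4, 79.5 and 79.9 CPM in KO (-0.36 ± 0.07, adjusted p 0.0748). The genotypes did not overlap for either neighbour. Of the 9 neighbours, these 2 were lower at an unadjusted p under 0.05 and 0 were higher. Between Btaf1 and Ide lie Cpeb3, at 0.016 ± 0.05 (adjusted p 0.964), and March5, at -0.08 ± 0.05 (adjusted p 0.713). Of these, March5 also had no overlap of the genotypes. As background, a segment with Ide and Fgfbp3 is known to vary in copy number among C57BL/6J mice. Copy number was not measured here, and its part in the difference was not tested.

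The same genes were then followed in cortex and hippocampus of the same series, which are separate libraries; whether they came from the same animals is not stated. In their deviations from the group means, same-numbered libraries of cerebellum and another region had correlations across genes of -0.07 to 0.34. Of the 32 called genes other than Fmr1, 30 were tested in cortex, and 13 of them moved in the cerebellar direction at an unadjusted p under 0.05, with 0 in the opposite direction. The background in cortex was 10.3% of genes higher and 10.7% lower at that p. None of the 30 was called there, where 3 genes in all were called (0.0203%). In hippocampus 29 were tested, and 10 moved in the cerebellar direction with 0 opposite, against a background of 6.36% higher and 6.12% lower. Etv5, Syt16 and Afap1l2 were also called in hippocampus, where 31 genes (0.209%) were called.

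Genes that moved the same way at an unadjusted p under 0.05 in all 3 regions numbered 8: Etv5, Ide, Afap1l2, Syt16, Fmo2, Zbtb16, Fundc2 and Tenc1. Etv5 was at 93.1, 93.4 and 73.9 CPM in cortex WT and at 142, 114 and 136 CPM in cortex KO (0.59 ± 0.11). In hippocampus it was at 55.8, 52.0 and 51.7 CPM in WT and at 92.4, 88.0 and 80.0 CPM in KO (0.71 ± 0.06, adjusted p 0.0331). Its KO libraries lay above its WT libraries in each region. Syt16 was far more abundant in the forebrain regions, at 95.0 to 102 CPM in cortex WT and 57.8 to 72.6 CPM in cortex KO. Its hippocampal levels were 62.3 to 73.3 CPM in WT and 39.2 to 44.4 CPM in KO (-0.65 ± 0.08, adjusted p 0.0410). Ide was lower by -0.74 ± 0.10 in cortex and by -0.66 ± 0.10 in hippocampus, and its neighbour Btaf1 by -0.27 ± 0.07 in both. Fgfbp3 was at -0.16 ± 0.19 in cortex and -0.28 ± 0.15 in hippocampus, with an unadjusted p over 0.05 in both.

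**Figure D3:**
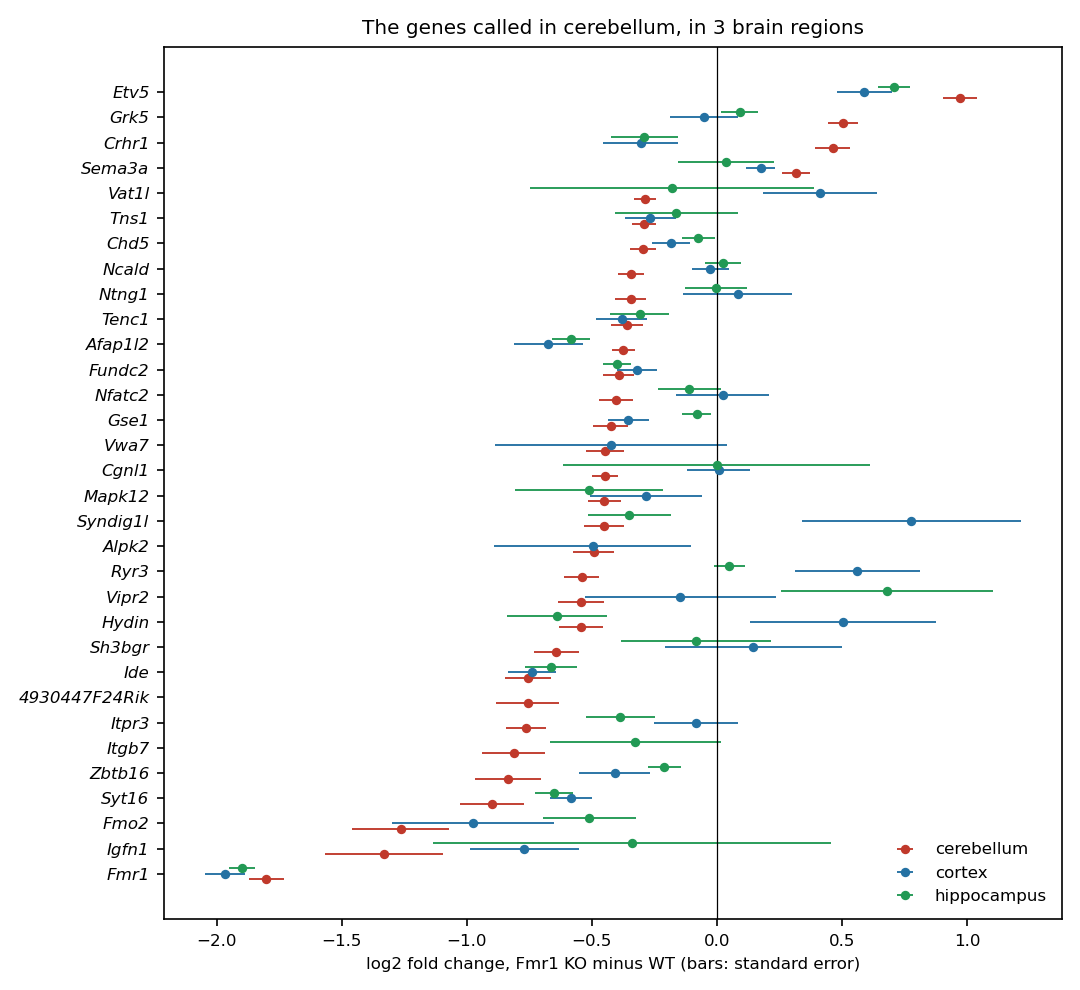
Log2 fold change of KO against WT, with its standard error, for 32 of the called genes in cerebellum, cortex and hippocampus, 1 row per gene and 1 colour per region. Fmr1, Etv5, Ide, Afap1l2 and Syt16 lie on 1 side of 0 in the 3 regions, whereas Grk5 and Crhr1 have values of opposite sign in at least 1 other region.

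For 13 of the called genes the unadjusted p was 0.05 or more in both other regions. Whether their effect differed between regions was tested with an interaction term in a fit of all 18 brain libraries. The interaction of genotype with cerebellum against cortex was called for 0 of 15504 genes (0%), with 2349 at an unadjusted p under 0.05 and 231 called by DESeq2. Against hippocampus it was called for 1 gene (0.00645%), with 823 at an unadjusted p under 0.05 and 13 called by DESeq2. Of the 33 genes, Crhr1 came closest against cortex, with a difference of 0.76 ± 0.18 (adjusted p 0.114). Its cortical levels were 23.4, 19.95 and 17.5 CPM in WT and 12.9, 18.6 and 17.7 CPM in KO. A regional difference in the effect on Crhr1 was therefore not shown at the adjusted threshold. Without the library cortex WT 3 the interaction with cortex was called for 465 genes.

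Gene lists were described by their counts, beside the shares over all genes given above. Of 34 messenger RNAs widely cited as FMRP targets, 0 were called, 2 were higher and 4 lower at an unadjusted p under 0.05, and the median log2 fold change was -0.0065. Map1b, a microtubule protein, was at 1346, 1290 and 1388 CPM in WT and at 1171, 1230 and 1215 CPM in KO (-0.15 ± 0.05, adjusted p 0.285). Kcnd2, the A-type potassium channel Kv4.2, was at 351, 367 and 387 CPM in WT and at 403, 427 and 407 CPM in KO (0.16 ± 0.05, adjusted p 0.303). Neither passed the adjusted threshold, although their groups did not overlap. Without WT 3 the list held 4 called genes, 2 higher (Kcnd2 among them) and 2 lower (Bai2 and Shank1), where 1.74% of all genes were called. In that fit 4 were higher and 11 lower at an unadjusted p under 0.05, against a background of 7.57% and 7.76%. With an offset for GC content 0 were called, with 2 higher and 8 lower at that p. Without KO 2, 0 were called, with 1 higher and 4 lower, against 2.53% and 3.97% of all genes.

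Neuronal signalling lists held few called genes. Of 30 genes of mGluR1 and calcium signalling, Itpr3 was called, 2 were higher and 2 lower at an unadjusted p under 0.05 (median 0.0069). Without WT 3 the called genes of this list were Itpr3, Plcb3 and Dagla, all lower, in a fit that called 1.74% of all genes. In that fit 4 of the 30 were higher and 5 lower at an unadjusted p under 0.05, against 7.57% and 7.76%. With an offset for GC content, and also without KO 2, Itpr3 was the only call in the list. Of 25 glutamate receptor genes 0 were called and 1 was higher at an unadjusted p under 0.05, the synapse organiser Cbln1 (0.17 ± 0.08, adjusted p 0.558). Of 22 genes of the GABA synapse 0 were called and 3 were higher, among them Gabra6 (0.13 ± 0.04, adjusted p 0.389). Of 26 voltage-gated channel genes 0 were called, with 2 higher and 4 lower. The L-type calcium channel Cacna1c was lower by -0.16 ± 0.06 and the potassium channel Kcnd3 by -0.13 ± 0.05. Without WT 3, Kcnd2 was the called member of this list. Among 26 genes that cause ataxia when mutated, 0 were called, 1 was higher (Elovl4) and 2 were lower (Itpr1 and Kcnd3). Among 59 splicing regulators 0 were called, with 3 higher (Raly, Rbfox2 and Srrm4) and 2 lower (Mbnl3 and Srrm2). Without WT 3, 11 splicing regulators were higher at an unadjusted p under 0.05, against a background of 7.57%, and 0 were called.

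Markers of glia were compared beside Etv5, which is a member of the list of 15 Bergmann glia markers. Of these, 1 was called, 7 were higher and 0 lower at an unadjusted p under 0.05 (median 0.10). Without KO 2, 4 were higher and 0 lower, against 2.53% and 3.97% of all genes. Without WT 3, 6 were higher and 1 lower, against 7.57% and 7.76%. Fabp7, a fatty-acid-binding protein of radial and Bergmann glia, was at 23.1, 21.9 and 24.3 CPM in WT and at 28.7, 27.7 and 27.7 CPM in KO (0.28 ± 0.06, adjusted p 0.157), and it was called higher without WT 3. The summed level of the list was 4902 to 5081 CPM in WT and 5149 to 5445 CPM in KO, without overlap. Etv5 is itself counted in these numbers and in the sum, and the part of this level in its rise was not tested. Of 13 astrocyte markers 4 were higher and 0 lower (median 0.087). Without KO 2, 0 of the 13 were higher, and without WT 3, 6 were. The 4 were Gja1, Fgfr3, Sox9 and Gjb6, and the summed level was 3514 to 3745 CPM in WT and 3745 to 3889 CPM in KO. The genotypes just overlapped, with WT 3 at 3745.35 CPM and KO 1 at 3745.15 CPM. In bulk tissue, fewer cells of a type and less RNA per cell cannot be told apart, and the same holds for more of either. Markers of granule cells (15 genes, 2 higher), Purkinje cells (17 genes, 1 lower) and oligodendrocytes (16 genes, 2 higher and 1 lower) held 0 called genes. Without WT 3, 4 oligodendrocyte markers were called higher, among them Mal, Mobp and Ugt8a, in a fit that called 1.74% of all genes. In that fit 10 of the 16 were higher and 1 lower at an unadjusted p under 0.05, against 7.57% and 7.76%. Their summed level was 7044, 7138 and 8581 CPM in WT 1 to 3, highest in WT 3. It was 7592, 7073 and 8052 CPM in KO 1 to 3, so the genotypes overlapped. With an offset for GC content 3 were higher and 0 called, and without KO 2, 2 were higher and 0 called.

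Genes of the FGF and ERK pathway, in which Etv5 is a target, were counted from a list of 21. Etv5 was called, 5 genes including it were higher and 1 was lower at an unadjusted p under 0.05 (median 0.035). The feedback inhibitors Spred2 (0.25 ± 0.08), Dusp6 (0.22 ± 0.08) and Spry2 (0.16 ± 0.06) and the receptor Fgfr3 (0.14 ± 0.06) were the others with higher values. Their adjusted p-values were 0.357, 0.401, 0.453 and 0.481. Fgf1, a ligand, was at 192, 181 and 201 CPM in WT and at 166, 150 and 166 CPM in KO (-0.25 ± 0.06, adjusted p 0.137). Without WT 3, Spred2 was called higher and Fgf1 lower in addition to Etv5, in a fit that called 1.74% of all genes. Without KO 2, Etv5 was the only call of the list. In that fit 3 of the 21 were higher and 3 lower at an unadjusted p under 0.05, against 2.53% and 3.97% of all genes.

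Genes of the choroid plexus, the epithelium that secretes cerebrospinal fluid, had the median farthest from 0 of the lists examined, without a single call. Of 16 genes of choroid plexus and ependyma 0 were called, while 10 were lower and 0 higher at an unadjusted p under 0.05, and the median log2 fold change was -0.54. Ttr, the transthyretin gene, was at 851, 1273 and 1148 CPM in WT and at 679, 335 and 929 CPM in KO. The genotypes overlapped, with KO 2 the lowest library and KO 3 above WT 1. Aqp1, a water channel, was lower by -0.87 ± 0.28 (adjusted p 0.355), Sostdc1 by -0.81 ± 0.26 (adjusted p 0.356) and the bicarbonate transporter Slc4a5 by -0.79 ± 0.23 (adjusted p 0.288). The summed level of the list was 1027 to 1522 CPM in WT and 438 to 1122 CPM in KO. Without KO 2 the median was -0.36, with 9 of the 16 lower at an unadjusted p under 0.05. Hydin is also made by ciliated ependyma, and Cgnl1 by epithelia, so these levels stand beside theirs. Among the KO libraries Hydin was highest in KO 2 and Cgnl1 lowest, and the part of choroid plexus in either fall was not tested.

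**Figure D4:**
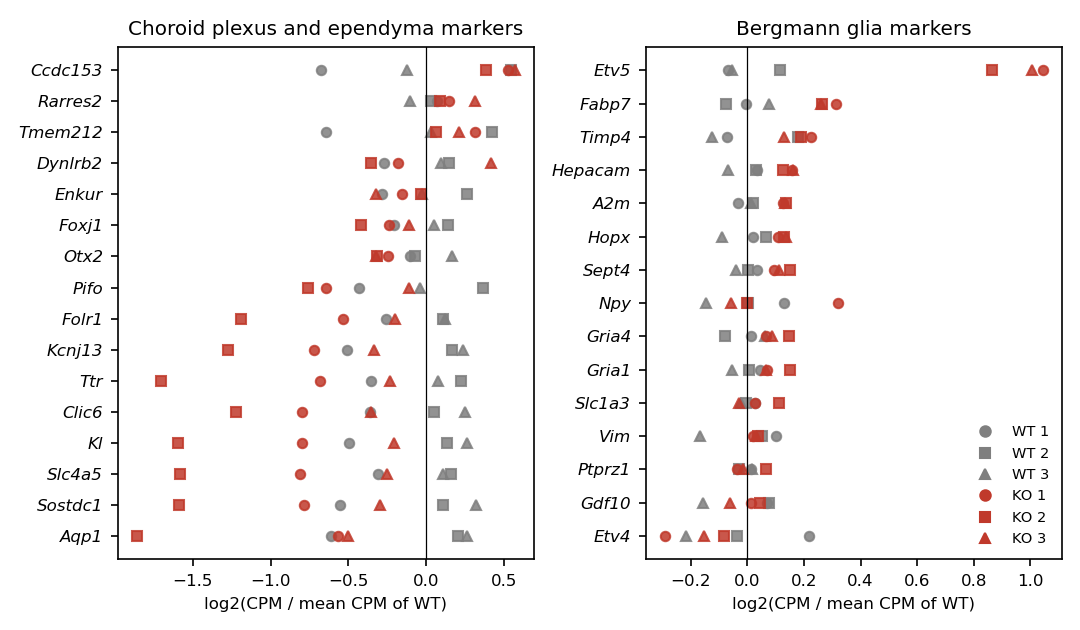
Expression of the 16 choroid plexus and ependyma markers (left) and the 15 Bergmann glia markers (right) in each cerebellum library, as log2 of CPM over the mean of the WT libraries; WT in grey, KO in red, and the horizontal scales differ. KO 2 is lowest for Ttr, Aqp1 and their neighbours, where KO 3 lies close to WT 1, and Etv5 stands apart from the other Bergmann glia markers.

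Other lists gave single genes. Of 21 junction genes, Cgnl1 was called, 3 were higher and 3 lower at an unadjusted p under 0.05. Its close relative Cgn, cingulin, was at 14.4, 14.6 and 14.0 CPM in WT and at 11.4, 12.2 and 11.8 CPM in KO (-0.28 ± 0.08, adjusted p 0.253). The endothelial claudin Cldn5 was higher at 0.34 ± 0.08 (adjusted p 0.184). Of 15 glucocorticoid-responsive genes, Zbtb16 was called, and Plin4 (-0.62 ± 0.14, adjusted p 0.149) and Fkbp5 (-0.28 ± 0.09, adjusted p 0.355) were also lower, while Lcn2 was higher with overlapping groups (1.63 ± 0.50, adjusted p 0.309). Of 21 immediate early genes 0 were called, with 3 higher and 1 lower; Junb was at 5.38, 4.43 and 5.30 CPM in WT and at 6.39, 6.83 and 7.08 CPM in KO (0.43 ± 0.11, adjusted p 0.228). Fos, of the same list, was at 0.51 and turned to -0.38 without KO 2. Of 11 genes known to differ between mouse lines, Ide was called, and Cyfip2 was the other gene lower at an unadjusted p under 0.05. In that list Wdfy1 was at 0.41 on the log2 scale and turned to -0.08 without KO 3.

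The authors' deposited table lists 38 genes at an adjusted p under 0.05 in this comparison, 7 higher and 31 lower, of which 15 were among the 33. For the 33 genes its log2 fold changes differed from those given here by at most 0.0089.

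Splicing was examined in the deposited junction counts of 5 event types. The inclusion level of an event is the share of transcripts with the longer or included form, corrected for the lengths of both forms. The tables name their replicate sets only as the first and the second, without a genotype, so each difference below is the first set minus the second and has no direction for KO. Of 12098 listed events, 7056 were covered by 20 or more junction reads on average in each set and were tested again with a quasi-binomial model, in which a call needed an adjusted p under 0.05 and a difference of at least 0.1. Of 5942 skipped exons 0 were called (0%), with 286 at an unadjusted p under 0.05 (4.81%). Of 1114 events of the other 4 types 0 were called, with 88 at an unadjusted p under 0.05. The shares were 8.24% of 376 alternative 3′ sites, 10.4% of 211 alternative 5′ sites, 6.67% of 525 mutually exclusive exons and 0 of 2 retained introns (0%).

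Enpp2, which encodes autotaxin, a secreted enzyme that makes lysophosphatidic acid, held both the skipped exon of smallest p and the alternative 5′ site of smallest p. These segments are shown with that of Ppp3ca, the catalytic subunit of calcineurin, because they had the deepest junction counts among the named events; capitals mark the alternative segment and lower case the 20 bases of messenger RNA on either side (GENCODE M21 transcripts, GRCm38, 5′ to 3′).
Enpp2 skipped exon, chr15:54851348-54851422, minus strand: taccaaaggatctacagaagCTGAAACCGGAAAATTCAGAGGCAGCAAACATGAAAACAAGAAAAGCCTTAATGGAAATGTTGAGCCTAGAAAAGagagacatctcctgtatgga
Enpp2 segment between its alternative 5′ sites, chr15:54862498-54862509, minus strand: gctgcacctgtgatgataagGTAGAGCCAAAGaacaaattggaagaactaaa
Ppp3ca skipped exon, chr3:136932011-136932040, plus strand: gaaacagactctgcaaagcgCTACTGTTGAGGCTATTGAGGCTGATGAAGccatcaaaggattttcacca
The segments are 75, 12 and 30 bases long, lie wholly within coding sequence, and each is a multiple of 3, so including or skipping them keeps the reading frame.

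The 75-base exon of Enpp2 was included at 0.143, 0.159 and 0.117 in the first set and at 0.108, 0.0884 and 0.0943 in the second, with 281 to 882 junction reads per replicate. The sets did not overlap, and the difference of 0.043 did not pass the correction (adjusted p 0.0984). The 12-base segment of Enpp2 was included at 0.806, 0.748 and 0.757 in the first set and at 0.710, 0.694 and 0.699 in the second. Its difference of 0.069 had the only adjusted p under 0.05 of all re-tested events (0.0182) and was below the required 0.1. The level of Enpp2 differed widely among libraries, at 1021, 1448 and 1716 CPM in WT and 857, 560 and 1186 CPM in KO (-0.69 ± 0.22, adjusted p 0.355). It was lowest in KO 2, as were the choroid plexus genes, in whose epithelium Enpp2 is abundant; their part in the exon values was not tested. The 30-base exon of Ppp3ca was included at 0.795, 0.766 and 0.754 in the first set and at 0.816, 0.817 and 0.831 in the second, a difference of -0.050 from 766 to 1155 reads per replicate (adjusted p 0.178).

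Xiap, an inhibitor of caspases encoded on the X chromosome, had the exon with the next smallest p. The exon (chrX:42094367-42095272, plus strand, 906 bases) carries the start codon in 3 of 3 coding transcripts. It was included at 0.750, 0.882 and 0.878 in the first set and at 1 in each replicate of the second. The first set held 7, 2 and 3 reads of the skipping form, and the second held 0 beside 31, 45 and 51 reads of inclusion. The difference of -0.163 was large enough for a call, but its adjusted p was 0.0984, and the authors' deposited table gives it a false discovery rate (FDR) of 0.00392.

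Among the other types, an alternative 3′ site of Pcbp2, an RNA-binding protein, had the smallest p of its kind. It was used at 0.574, 0.627 and 0.587 in the first set and at 0.753, 0.699 and 0.729 in the second (difference -0.131, adjusted p 0.0916, 122 to 215 reads). The sets were well separated. An alternative 5′ site of Cops5, a subunit of the COP9 signalosome, differed by 0.098 (adjusted p 0.0779). Mutually exclusive exons of Trim9, a ubiquitin ligase of neurons, were at 0.299, 0.208 and 0.316 in the first set and at 0.124, 0.115 and 0.137 in the second (0.149, adjusted p 0.360). The values of Nckap1, a subunit of the WAVE complex, and Etv1 differed by -0.070 and 0.071 (adjusted p 0.261 and 0.591).

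**Figure D5:**
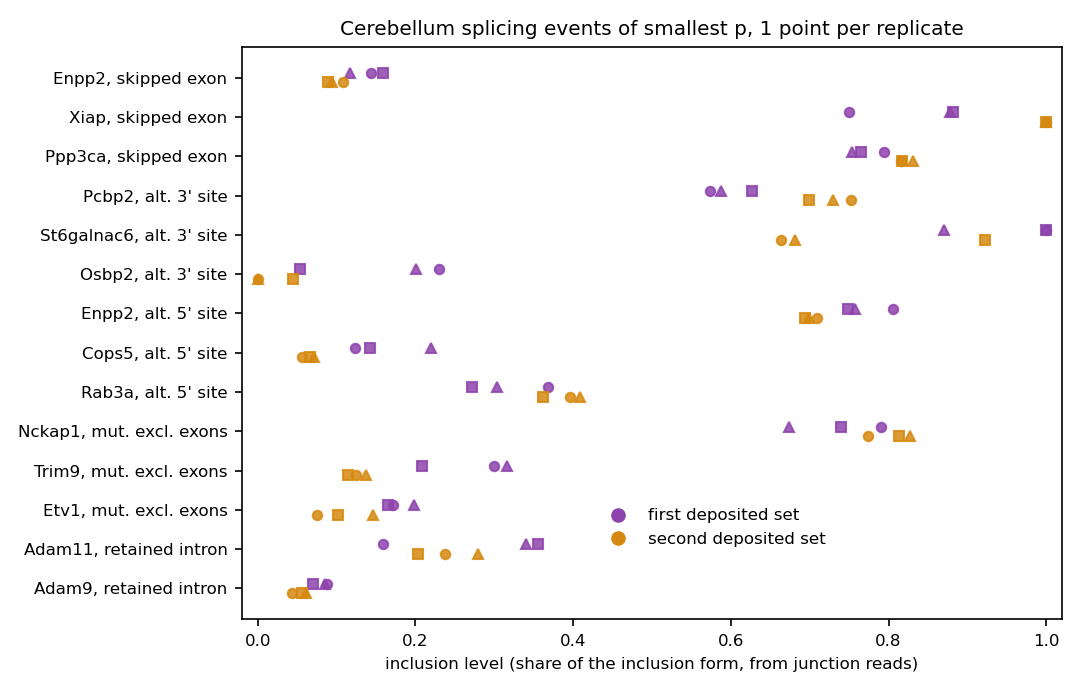
Inclusion level of the named splicing events in each replicate of the first and second set of the deposited tables (horizontal axis, 0 to 1), 1 row per event. The sets are separate for Enpp2, Xiap, Ppp3ca and Pcbp2, with differences between 0.043 and 0.163 in size.

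In the authors' deposited tables, 14 skipped exons passed an FDR of 0.05 with a difference of at least 0.1 (0.146% of those listed). The others were 8 alternative 3′ sites (0.766%), 14 alternative 5′ sites (1.93%), 1 pair of mutually exclusive exons (0.137%) and 0 retained introns (0%). Most of these rested on few reads. The 14 skipped exons had a median of 8 junction reads per replicate, and 1 of them, in Xiap, reached the minimum for the second test, in which the median event had 58.5 reads. Of the 23 deposited calls of other types, 2 reached it, in St6galnac6 (difference 0.201, adjusted p 0.422) and Osbp2 (0.147, adjusted p 0.422).

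Skipped exons of cerebellum were also set against those of the other regions. Of 2394 exons tested in both cerebellum and cortex, the interaction was called for 0 (0%), with 222 at an unadjusted p under 0.05. Of 2679 tested in both cerebellum and hippocampus it was called for 0 (0%), with 236 at an unadjusted p under 0.05. These tests take the first sets of both tables to be the same genotype, which the tables do not state.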

How the data were processed

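Cerebellum RNA of 3 WT and 3 Fmr1 KO samples was sequenced; groups and numbers came from the sample titles. The deposited brain table holds read counts and TPM per gene and sample, and log2 fold changes and p-values computed by the authors, per the file headers. Per the submitters' processing notes, which give no roles, the tools were CASAVA, FastQC 0.11.8, Trimmomatic 0.39, Bowtie2 2.3.5, STAR 2.6.1, RSEM 1.3.1 and DESeq2 1.16.1, with GRCm38 and mm10. Whether counting used strand is not given in the sources used here, so reads of overlapping antisense genes cannot be told apart. The other values deposited by the authors were rMATS-style junction reads, form lengths and inclusion differences; 7 events with cells rewritten by a spreadsheet were left out. A further 18 columns of normalised values were not used.

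Of 15777 genes, 14627 passed filterByExpr and were tested with TMM scaling and the quasi-likelihood F test of edgeR 4.0.16 (limma 3.58.1, R 4.3.3, package data.table, version 1.17.8) on the 6 libraries. CPM use TMM-scaled library sizes; depth of 27452002 to 40722762 counts gave a biological coefficient of variation of 0.0599. Junction reads were tested with a quasi-binomial model whose dispersion was moderated across events and not under 1. Regions were compared in a fit of 18 libraries. Alternatives were DESeq2 1.42.0, its size factors, no filter, all 18 libraries, the replicate block, leaving out each library, read minimums of 10 and 50, a difference of 0.05 and, added after seeing the data, a GC offset, the opposite order of sets and lists without WT 3 or KO 2. Scripts were tested on simulated data. Plots used Python 3.11.15 and matplotlib 3.10.9. Positions and sequences are from GENCODE M21; 15658 genes matched.

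Named were Fmr1, all called genes and, per list, called members and the 3 of largest change with a mean of at least 1 CPM; named events were the 3 of smallest p per type. Further list members passing an unadjusted p of 0.05, the neighbours of Ide and the deposited events named were chosen after their values were seen. Some genes that the rule names are not reported here. Members and lists were chosen with earlier results of these data known.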

Additional observations from a re-analysis of the deposited data

Results flagged for a closer look

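Rassf2, a tumour suppressor of the RASSF family, was the 1 gene for which the effect of genotype differed between cerebellum and hippocampus by the interaction test. The difference of log2 fold changes was 0.40 ± 0.06 (SE; edgeR quasi-likelihood test over 15504 genes, Benjamini-Hochberg adjusted p 0.0392). With 1 library left out, 0 to 10 genes were called by this interaction test, so the call of Rassf2 did not hold in every such fit. In cerebellum Rassf2 was at 86.6, 90.1 and 88.6 CPM in WT and at 95.1, 94.9 and 91.4 CPM in KO. In hippocampus it was at 67.8, 67.3 and 67.6 CPM in WT and at 53.6, 54.2 and 54.7 CPM in KO. KO was higher than WT in 3 of 3 cerebellum libraries and lower in 3 of 3 hippocampus libraries. In cortex the levels were 71.1, 72.7 and 68.2 CPM in WT and 70.2, 67.2 and 64.4 CPM in KO.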

How the results depend on the processing

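The count of 33 called genes became 92 with DESeq2 (23 higher, 69 lower; 32 of the 33 among them, and Igfn1 without an adjusted p), 11 in the fit of all 18 libraries (8 of the 33), 135 with a GC offset (33 higher, 102 lower; all 33) and 6 to 256 with 1 library left out. It was 33 with DESeq2 size factors and 37 without a filter. The genes called in every planned fit numbered 4, among them Fmr1, Etv5 and Itpr3. The interaction counts were 231 (DESeq2), 4 (replicate block) and 0 to 465 (1 library left out) against cortex, and 13 (DESeq2), 1 (replicate block) and 0 to 10 (1 library left out) against hippocampus. The cause of these moves was not tested. Deposited calls gave 14 skipped exons and 23 other events against 0; a difference of 0.05 gave 1 other event; the fits without 1 replicate gave 0. Exon interactions gave 0 to 1 with 1 replicate left out against either region, and 1 against hippocampus with the opposite order of sets. With 1 library left out, Wdfy1 ranged from -0.078 to 0.61 (negative without KO 3), Fos from -0.38 to 1.41 (negative without KO 2) and Pcp2 from -0.035 to 0.23 (negative without WT 3), none of them called.

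Whether the replicate numbers pair the samples was not settled. Between same-numbered WT and KO libraries the correlations of their deviations were 0.02, -0.10 and 0.06. Differently numbered libraries were not compared, so these values cannot decide it. Same-numbered cerebellum and hippocampus libraries had 0.10, 0.29 and 0.34 in KO and 0.27, 0.04 and 0.05 in WT, and cerebellum and cortex libraries -0.07 to 0.33; not every pair was above 0.1. With a replicate block 39 genes were called, 27 of the 33 among them. No replicate block was run for exons because the sets carry no sample numbers. Events under 20 junction reads were not re-tested, and a called event needed a difference of 0.1 in inclusion; the smallest change that 3 libraries a genotype could show was not measured.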
